A study of Mus musculus with 9 samples.

Results

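The 9 genes Fos, Fosb, Fosl1, Fosl2, Jun, Junb, Jund, Batf and Atf3 encode the FOS and JUN proteins and 2 of their dimer partners, and they were followed through RNA-seq of sorted mouse bone marrow megakaryocyte-erythrocyte progenitors (MEPs). They were chosen by name, with no measured value in the rule but with earlier results of these data known. They were the 9 of 35275 gene identifiers in the count table that carry these symbols. MEPs (Lin-ckit+CD34-FcγRII/IIIlo) came from C57Bl/6 wild-type mice of 6 to 12 weeks, age- and sex-matched, and no treatment is named for any group. They were sorted by how strongly they bound HS3A8, a single-chain antibody fragment (scFv) that recognizes heparan sulfate on the cell surface. The HS3A8-high and the HS3A8-low fraction were equal shares from the top and the bottom of the binding distribution. Control MEPs were mock-sorted with the scFv MPB49, which does not bind heparan sulfate, and stand for total MEPs. There were 3 libraries per group and 25000 cells per library. Because both fractions and the control are mixtures of cells, fewer cells of a type and less RNA per cell cannot be told apart in these data. The sources used here do not say whether fractions of one replicate number came from the same mouse.

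AP-1 is a dimer of basic leucine zipper (bZIP) proteins. FOS proteins cannot pair with each other and bind DNA together with a JUN protein, whereas JUN proteins also pair among themselves. Fos, Fosb, Jun and Junb are immediate-early genes, transcribed within minutes of a growth factor, cytokine or stress signal through MAP kinases without new protein synthesis, and their mRNAs are short-lived. In blood cells AP-1 takes part in proliferation, in stress responses and in myeloid and megakaryocytic gene expression.

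Fos lies on chromosome 12 at chr12:85473890-85477273 of GRCm38 (the mm10 build) on the plus strand. Jun lies at chr4:95049034-95052222 on the minus strand and is a single exon, as is Jund at chr8:70698949-70700616 on the plus strand. Junb lies on the same chromosome at chr8:84974484-84978718 on the minus strand. Batf lies near Fos at chr12:85686669-85709087, plus strand. Fosb is at chr7:19302696-19310051 (minus), Fosl1 at chr19:5447547-5455946 (plus), Fosl2 at chr5:32135801-32157842 (plus) and Atf3 at chr1:191170296-191218039 (minus). Genes on the other strand share exon sequence with 4 members, and whether the counting used strand was not given in the sources used here. Ccdc85b covers 57.2% of the exon length of Fosl1 and held 92 to 169 counts per library. Gm11175 covers 52.6% of Jund and held 0 counts in all 9 libraries. Prdx2, with 10817 to 22131 counts, covers 7.5% of Junb, and Junos, with 2 to 11 counts, covers 7.3% of Jun. The values of Fosl1, which had 4 to 15 counts, are therefore uncertain. So is the level of Jund, because reads in the shared sequence may have gone uncounted.

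The promoters of Fos, Jun and Junb are shown because these genes had the highest counts of the family and passed the test between the fractions. Each window runs from 250 bases before to 50 bases after the start site of RefSeq on GRCm38.p6, on the strand of the gene, with the AP-1 and CRE-type motifs in capitals.
Fos promoter (chr12:85473640-85473939): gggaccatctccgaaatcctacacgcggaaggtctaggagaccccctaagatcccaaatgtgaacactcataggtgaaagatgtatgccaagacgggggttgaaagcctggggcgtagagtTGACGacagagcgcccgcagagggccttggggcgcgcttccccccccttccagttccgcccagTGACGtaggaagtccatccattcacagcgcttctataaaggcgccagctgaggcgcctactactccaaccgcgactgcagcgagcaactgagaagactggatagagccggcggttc
Jun promoter (chr4:95052173-95052472): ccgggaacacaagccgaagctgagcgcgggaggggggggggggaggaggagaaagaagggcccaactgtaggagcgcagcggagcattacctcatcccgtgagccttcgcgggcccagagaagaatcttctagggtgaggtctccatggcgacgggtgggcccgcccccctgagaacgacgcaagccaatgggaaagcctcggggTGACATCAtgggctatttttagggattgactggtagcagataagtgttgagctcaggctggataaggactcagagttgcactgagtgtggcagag
Junb promoter (chr8:84978699-84978998): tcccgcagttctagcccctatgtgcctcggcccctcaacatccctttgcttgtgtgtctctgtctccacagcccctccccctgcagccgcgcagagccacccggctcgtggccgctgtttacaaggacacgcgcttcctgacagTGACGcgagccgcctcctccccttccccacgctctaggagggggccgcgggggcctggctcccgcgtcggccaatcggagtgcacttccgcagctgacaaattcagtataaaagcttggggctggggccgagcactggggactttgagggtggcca
The capitals mark TGACG, the shared core of cyclic AMP response elements (CREs), at positions -129 and -66 of Fos and -106 of Junb, and TGACATCA, an AP-1 site variant, at position -45 of Jun. Both strands were searched. Of 32851 RefSeq promoter windows of the same length, 20.8% held TGACG, and 3.62% held TGACATCA. The consensus AP-1 site TGACTCA (5.2% of windows), the full CRE TGACGTCA (1.79%) and the CArG box bound by serum response factor (1.63%) had no match in the windows of these 3 genes, nor in those of Fosb, Fosl2, Jund, Batf or Atf3. TATAAA, held by 13.6% of windows, was found at position -33 of Fos and at position 1 of Junb, whose RefSeq start site lies 30 bases from the 5′ end of the GENCODE gene. CCAAT, held by 37.4%, was found at -65 of Jun and -36 of Junb, and the GC box CCGCCC, held on either strand by 35.7%, at -74 of Fos and -89 of Jun. TGACG was also found at position -60 of Fosb, -98 of Batf and, on the other strand, -7 of Atf3. The RefSeq start sites of Jund, Fosl2 and Atf3 lay 1210, 671 and 34706 bases from the 5′ end of the GENCODE gene, so their windows are not shown. These matches describe the letters of the windows and say nothing of binding. Sites more than 250 bases before the start site lay outside the windows, so the absence of a match does not cover them.

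Library totals ran from 11781637 to 15850037 counts, so that 1 count equals 0.0589 to 0.0901 CPM (counts relative to the library total, scaled by TMM over all 9 libraries), and a count of 0 allows up to 3 counts, or 0.177 to 0.27 CPM. Such limits cover counting error only. MEP markers were present in every library, with Kit, Gata1 and Epor among them and summed levels of 1322 to 1967 CPM. Summed megakaryocyte markers (10 genes) were 32 to 50.8 CPM for HS3A8-high, 200 to 419 for HS3A8-low and 147 to 232 for control MEPs. Summed erythroid markers (11 genes) were 13760 to 14571, 10428 to 11701 and 12066 to 13475 CPM in the same order. Replicate 3 of both fractions stood apart by granulocyte-monocyte transcripts, with 20 summed markers at 1905 CPM in HS3A8-high 3 and 4865 CPM in HS3A8-low 3 against 15 to 340 CPM in the 7 other libraries. Control 1 stood apart by transcript length, with a median log2 deviation from the 9-library mean of 0.60 for the shortest 20% and -0.50 for the longest 20% of transcripts.

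Fos was the most abundant member. It gave 264, 247 and 344 CPM in HS3A8-high MEPs, 553, 561 and 647 CPM in HS3A8-low MEPs and 574, 372 and 389 CPM in control MEPs (replicates 1 to 3). Every HS3A8-high library was below every HS3A8-low and every control library, and control 1 lay within the HS3A8-low range. Fosb, a FOS protein known from neurons and bone, gave 7.88, 5.11 and 6.22 CPM in the HS3A8-high libraries, 10.4, 10.5 and 6.59 CPM in the HS3A8-low ones and 21.6, 6.53 and 10.7 CPM in control MEPs, and its groups overlapped. Fosl1 (FRA-1) was near the limit of detection at 0.699, 0.305 and 0.595 CPM for HS3A8-high, 0.884, 0.778 and 1.08 for HS3A8-low and 0.631, 0.256 and 0.515 for control MEPs. Fosl2 (FRA-2) was similarly low at 0.572, 0.84 and 1.65 CPM for HS3A8-high, 1.65, 0.778 and 3.67 for HS3A8-low and 2.07, 0.512 and 1.77 for control MEPs. In both fractions its highest value was in replicate 3. Fos made up 95.9% to 98.3% of the summed CPM of the 4 FOS genes in every library, so that the FOS sum followed Fos.

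The JUN genes were all well expressed. Jun gave 121, 117 and 146 CPM with high, 367, 299 and 340 CPM with low HS3A8 binding and 495, 181 and 222 CPM in control MEPs. Junb, which can oppose Jun at some promoters, gave 94, 94.5 and 123 CPM with high, 255, 233 and 262 CPM with low HS3A8 binding and 367, 135 and 141 CPM in control MEPs. Controls 2 and 3 lay between the fractions for both genes and control 1 lay above all HS3A8-low libraries. Jund, the JUN gene that is expressed most steadily in resting cells, gave 49.8, 54.6 and 61.8 CPM with high, 107, 87 and 94.4 CPM with low HS3A8 binding and 150, 56.3 and 73.9 CPM in control MEPs. Here control 2 fell inside the HS3A8-high range.

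Batf, which pairs with JUN proteins in lymphoid and dendritic cells, gave 8.39, 13.2 and 9.19 CPM with high, 13.7, 13.8 and 18.5 CPM with low HS3A8 binding and 23.8, 12.4 and 13.2 CPM in control MEPs. HS3A8-high 2 was just below the lowest HS3A8-low library. Atf3, a stress-induced partner of JUN proteins, had 9, 0 and 8 counts with high, 8, 6 and 33 with low HS3A8 binding and 24, 9 and 15 in control MEPs, which is 0.572, 0, 0.529, 0.471, 0.424, 2.75, 2.16, 0.577 and 1.1 CPM. Its highest values were those of HS3A8-low 3 and control 1.

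**Figure D1:**
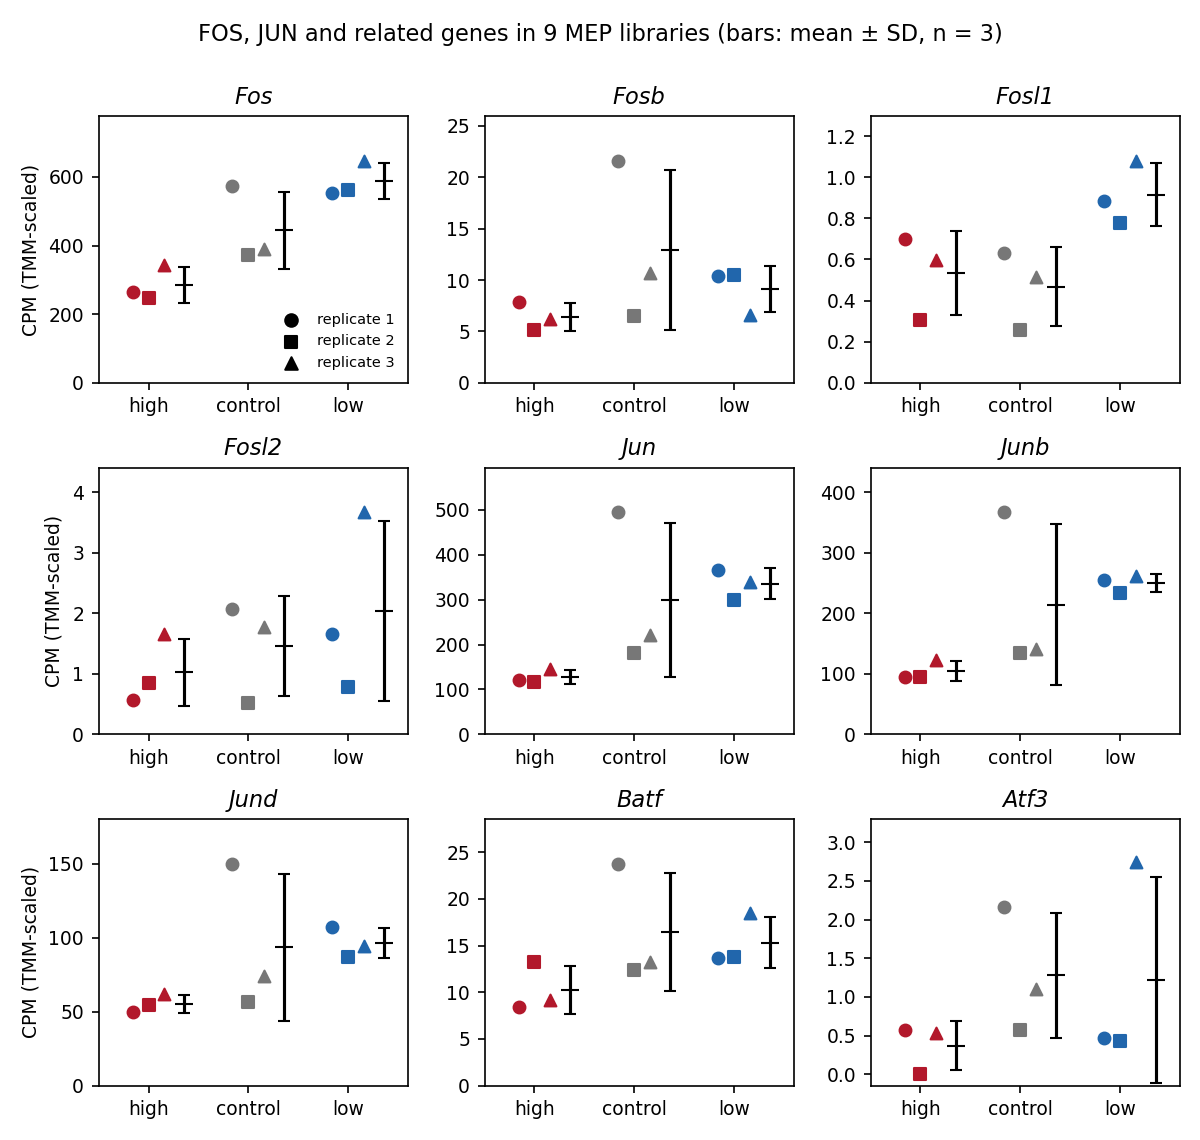
Level of each gene in CPM (TMM-scaled, linear axes that differ between panels) in the HS3A8-high, control and HS3A8-low libraries, with symbols for replicates 1 to 3 and bars for the mean ± SD (n = 3). For Fos, Jun, Junb and Jund the 3 HS3A8-high libraries lie below the 3 HS3A8-low libraries, and control 1 is the highest of 9 libraries for Fosb, Jun, Junb, Jund and Batf.

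Divided by exon length, levels can be compared between genes. A limit is that Jund and Fosl1, and sums that hold them, may be too low where exons are shared. Another is that exon length joins all transcripts of a gene. It is 2301 bases for Junb, whose longest transcript has 1809, and 3189 for Jun by either measure. The comparison of Junb with Jun therefore depends on this choice. In HS3A8-low MEPs Fos led with 250 ± 22.3 CPM per kb (SD, n = 3), followed by Junb (109 ± 6.58), Jun (105 ± 10.7), Jund (57.6 ± 5.96), Batf (10.9 ± 1.97) and Fosb (1.46 ± 0.354), and the ranges of Junb and Jun overlapped while those of the other neighbours down to Fosb did not. In HS3A8-high MEPs the order was the same with 121 ± 22, 45.1 ± 7.1, 40.2 ± 4.85, 33.2 ± 3.6, 7.3 ± 1.83 and 1.03 ± 0.223 CPM per kb, and Junb overlapped Jun, and Jun overlapped Jund. In control MEPs Fos was at 189 ± 47.7 CPM per kb, and Jun (93.9 ± 53.5), Junb (93 ± 57.5) and Jund (55.9 ± 29.7) overlapped. Atf3, Fosl1 and Fosl2 were below 0.6 CPM per kb on average in every group. The summed JUN genes per kb stood to the summed FOS genes per kb as 0.955, 1.04 and 0.921 for HS3A8-high, 1.22, 1.03 and 0.999 for HS3A8-low and 1.63, 0.935 and 1.05 in control libraries, and these ranges overlapped. The ratio of Jun to Fos counts was 0.46, 0.474 and 0.424 for HS3A8-high, 0.663, 0.533 and 0.525 for HS3A8-low and 0.862, 0.487 and 0.571 in control libraries. It was lower in HS3A8-high than in HS3A8-low MEPs without overlap (exact permutation test, two-sided, p = 0.1, the smallest that 3 against 3 libraries allow).

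The comparison of HS3A8-high with HS3A8-low MEPs asks how the fractions of one progenitor gate differ in expression. Fos, Jun, Junb and Jund fell in HS3A8-high relative to HS3A8-low MEPs. Jun was 2.68-fold lower (log2 fold change -1.42, SE 0.125, n = 3 per group, adjusted p = 0.00712, edgeR's quasi-likelihood test with Benjamini-Hochberg adjustment over all genes tested). Junb was 2.48-fold lower (log2 fold change -1.31, SE 0.129, edgeR adjusted p = 0.00868) and Fos 2.11-fold lower (-1.08, SE 0.144, edgeR adjusted p = 0.0196). Jund changed least, being 1.78-fold lower (-0.83, SE 0.126, edgeR adjusted p = 0.0257). Of 11791 genes tested, 451 (3.82%) passed an adjusted p of 0.05, and 379 (3.21%) passed with a lower level in HS3A8-high. Of the 9 members 8 had enough counts to be tested and 4 passed, all lower in HS3A8-high.

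The other members did not pass. Batf had a log2 fold change of -0.62 (SE 0.25, edgeR adjusted p = 0.234), Fosb -0.55 (SE 0.288, edgeR adjusted p = 0.354), Fosl1 -0.79 (SE 0.502, edgeR adjusted p = 0.443) and Fosl2 -1.02 (SE 0.686, edgeR adjusted p = 0.471). With no filter on counts Atf3 was fitted as well, at -1.68 (SE 1.13, edgeR adjusted p = 0.519), and the median of all 9 members was -0.99 against -0.07 over 18095 genes. HS3A8-high and HS3A8-low libraries did not overlap for Fos, Fosl1, Jun, Junb, Jund and Batf, 6 of the 8 members tested, all lower in HS3A8-high. The same was true of 14.3% of all genes tested. For Fosl1 it rested on scaling alone, since HS3A8-high 1 and HS3A8-low 2 both had 11 counts (0.699 and 0.778 CPM).

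Pairs were formed by replicate number, as log2 CPM of HS3A8-low minus that of HS3A8-high. The log2 differences in pairs 1, 2 and 3 were 1.59, 1.35 and 1.22 for Jun, 1.44, 1.3 and 1.1 for Junb, 1.07, 1.18 and 0.91 for Fos and 1.1, 0.67 and 0.61 for Jund. Those of Batf were 0.69, 0.06 and 1, those of Fosb 0.39, 1.01 and 0.08, and those of Fosl1 0.29, 1.04 and 0.74. Fosl2 (1.33, -0.09 and 1.09) and Atf3 (-0.22, 2 and 2.11) changed sign between pairs. With the replicate number as a block, 1367 genes (11.6%) passed in place of 451. The members that passed were again Fos, Jun and Junb (edgeR adjusted p = 0.00263 each) and Jund (edgeR adjusted p = 0.014). The count of members that passed remained at 4 without replicate 3 of both fractions, the libraries with the most granulocyte-monocyte transcripts. In the libraries kept, summed granulocyte-monocyte markers still differed, at 31 and 15 CPM for HS3A8-high and 204 and 340 CPM for HS3A8-low. The part of these transcripts in the calls was therefore not tested by this omission.

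**Figure D2:**
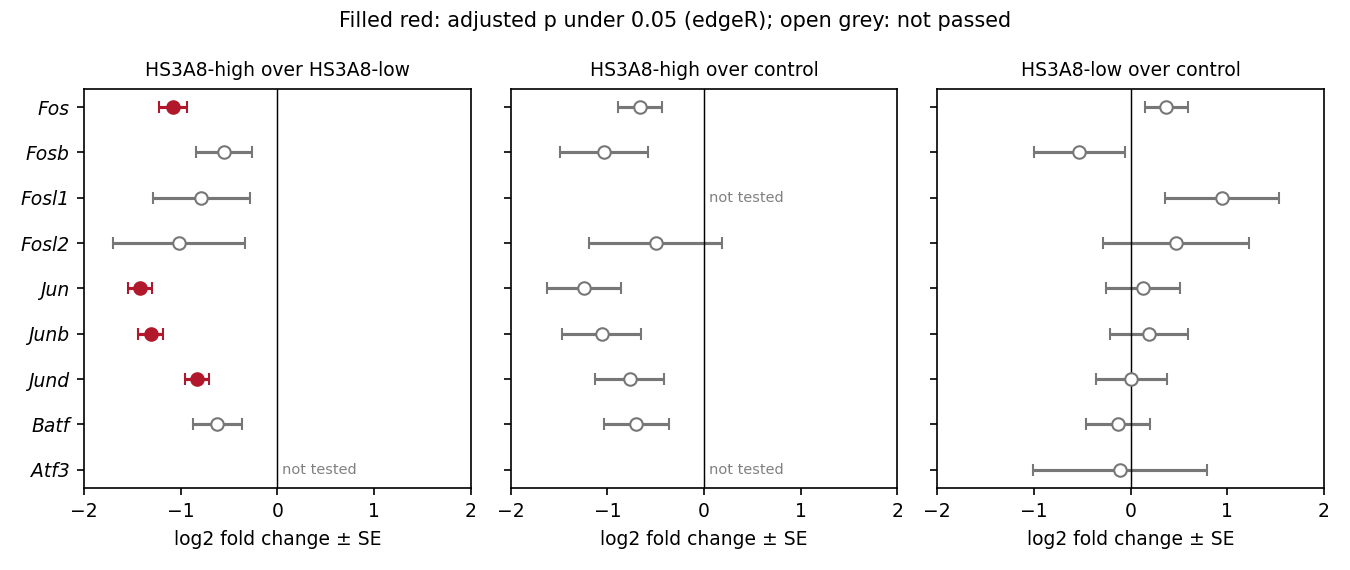
Log2 fold change ± SE (edgeR, n = 3 libraries per group) of each gene in the 3 comparisons, first group over second, with filled red points for an adjusted p under 0.05. Fos, Jun, Junb and Jund are filled and negative for HS3A8-high over HS3A8-low, and no point is filled in the comparisons with the control.

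The calls in fits without the replicate block rested on few libraries, and single libraries were left out only in such fits. Without HS3A8-low replicate 2 no gene at all passed in edgeR (1900 at an unadjusted p under 0.05, Fos, Jun, Junb and Jund among them), although the log2 fold changes of Jun (-1.48) and Fos (-1.09) were no smaller. Without HS3A8-high replicate 1, HS3A8-high replicate 2 or HS3A8-low replicate 1, Jun and Junb passed and Fos and Jund did not. With all 9 libraries in 1 fit, Fos alone passed. The log2 fold changes of these 4 genes remained negative under each of the 18 alternatives, from -1.52 to -1.04 for Jun, -1.44 to -0.93 for Junb, -1.23 to -0.72 for Fos and -0.91 to -0.5 for Jund. The smallest sizes came from removal of GC and length trends without centring, after which the median of all genes was 0.28 in place of -0.03, and which turned the share of calls lower in HS3A8-high from 84% to 18.1% (66.5% with the centred form). Jun, at -1.05 in that fit, and the other 3 genes still passed, all lower.

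**Figure D3:**
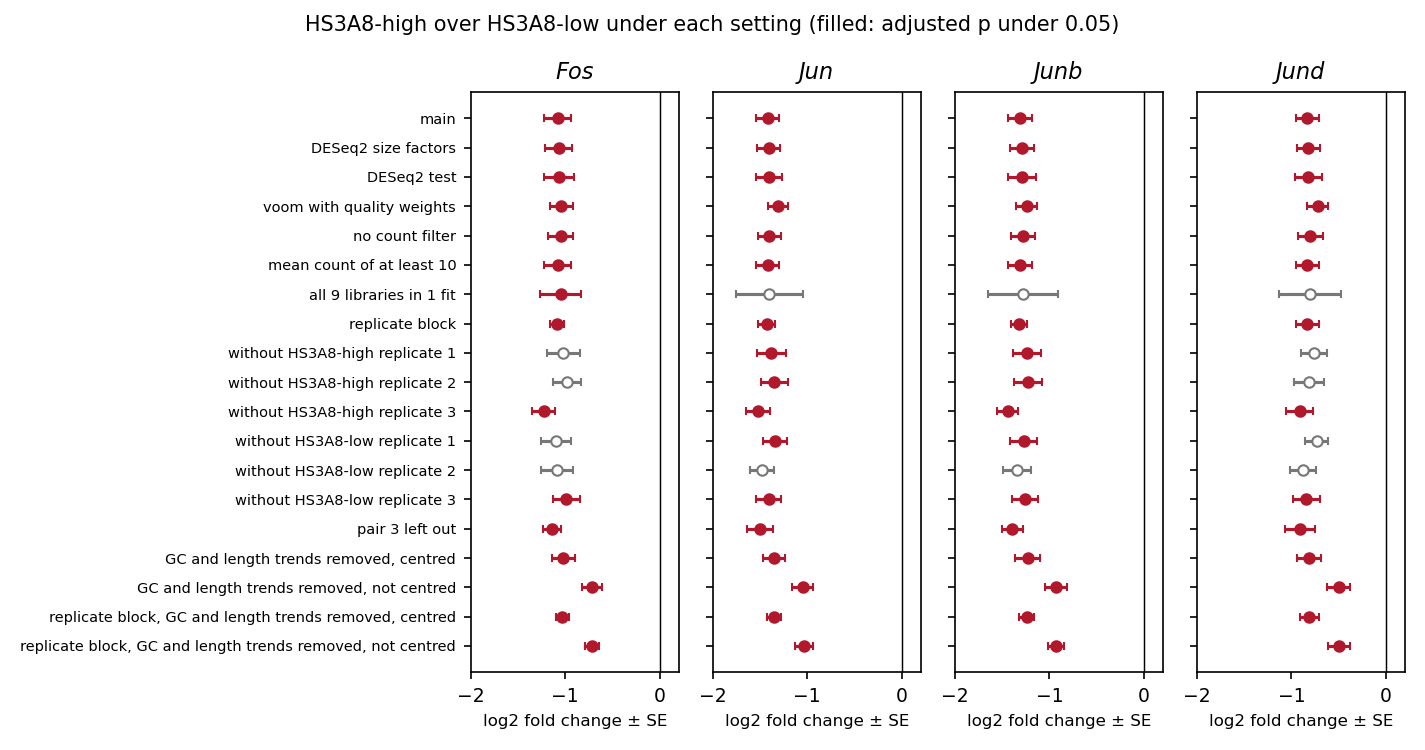
Log2 fold change ± SE of Fos, Jun, Junb and Jund, HS3A8-high over HS3A8-low, in the main test (top) and under each alternative, filled where the adjusted p was under 0.05. All points are below 0, and open points appear where single libraries were left out or all 9 libraries were fitted together.

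The comparison of HS3A8-high with control MEPs sets a fraction against total MEPs. None of the 7 members tested passed in edgeR, DESeq2 or voom. The log2 fold change was -1.24 for Jun (SE 0.38, edgeR adjusted p = 0.724), -1.06 for Junb (SE 0.408, edgeR adjusted p = 0.733) and -0.66 for Fos (SE 0.229, edgeR adjusted p = 0.733), and their unadjusted p-values (0.0136, 0.035 and 0.0238) were under 0.05. Jund (-0.77, SE 0.358), Batf (-0.7, SE 0.336), Fosb (-1.03, SE 0.456) and Fosl2 (-0.5, SE 0.685) had edgeR adjusted p-values of 0.733 to 0.779, and Fosl1 and Atf3 had too few counts to be tested. With no filter on counts Fosl1 was at 0.22 (SE 0.848), the opposite sign to the members tested. Of 11486 genes 2 (0.0174%) passed, with 562 at an unadjusted p under 0.05, 138 called by DESeq2 and 100 by voom. HS3A8-high libraries lay below all controls for Fos, Jun and Junb, as for 6.85% of all genes, and above all controls for no member, as for 7.58%. These differences were smaller without control 1, with log2 fold changes of -0.65 for Jun, -0.41 for Junb and -0.42 for Fos. Without control 1 and HS3A8-high 3 together, 175 genes passed, with Jun (-0.76, edgeR adjusted p = 0.0277) and Fos (-0.58, edgeR adjusted p = 0.0273) among them.

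In the comparison of HS3A8-low with control MEPs no member passed in edgeR. Fos had a log2 fold change of 0.37 (SE 0.223), Jun 0.13 (SE 0.385), Junb 0.19 (SE 0.405), Jund 0.01 (SE 0.366) and Batf -0.13 (SE 0.329), with edgeR adjusted p-values of 0.84 to 0.994. Fosl1 was at 0.95 (SE 0.589), Fosl2 at 0.47 (SE 0.758), Fosb at -0.53 (SE 0.47) and Atf3 at -0.11 (SE 0.902). Of 11878 genes 0 (0%) passed in edgeR, with 673 at an unadjusted p under 0.05 and none of them a member, while DESeq2 called 94 genes and no member and voom called 287 with Fos and Junb. Only Fosl1, with 11 to 15 counts against 4 to 7, was above all controls without overlap, as were 8.11% of all genes. No member was below all controls, as were 4.63%. Between settings all members but Fos and Fosl1 changed direction. Without control 1 the log2 fold changes were 0.74 for Jun, 0.86 for Junb, 0.56 for Jund and 0.63 for Fos, and the unadjusted p-values of these 4 genes were under 0.05. The median of the members was then 0.63, against -0.41 for HS3A8-high without control 1, whereas with control 1 the medians were 0.13 and -0.77, so which fraction lay nearer to the control turned with this library, and the difference between these distances was not tested. These medians cover different sets, the 9 members tested for HS3A8-low and the 7 tested for HS3A8-high. Both control comparisons share the control libraries and are not independent of each other.

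Taken one by one, the controls did not form a uniform group for these genes. Control 1 exceeded the mean of controls 2 and 3 by 1.41 for Junb, 1.35 for Fosb, 1.3 for Jun, 1.21 for Jund, 0.89 for Batf and 0.59 for Fos on the log2 scale. After each library's trends with GC content and transcript length were removed, with centring, these differences were 1.41, 1.74, 1.56, 1.25, 0.21 and 0.42. Both trends were removed together, and the part of either was not tested. Batf has the shortest transcript of the family (955 bases, 9.3rd percentile of coding genes). Controls 2 and 3 were nearest to each other for Junb (135 and 141 CPM) and Fos (372 and 389 CPM) and further apart for Jun (181 and 222 CPM), Jund (56.3 and 73.9 CPM), Fosb (6.53 and 10.7 CPM) and Fosl2 (0.512 and 1.77 CPM).

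**Figure D4:**
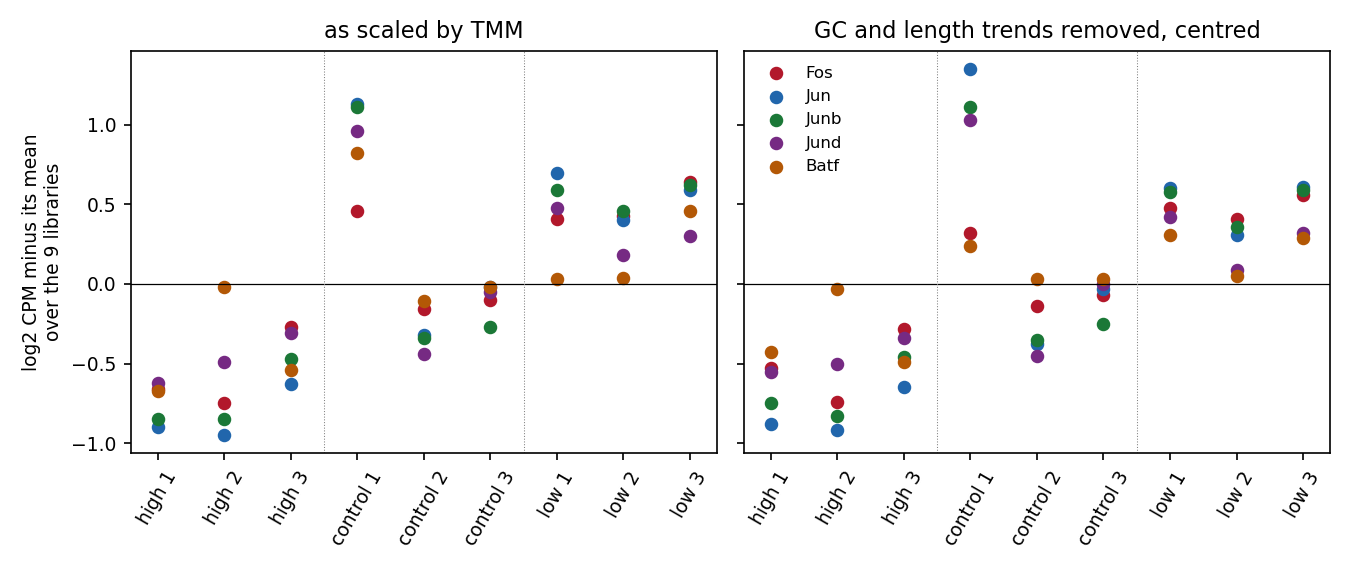
Log2 CPM of Fos, Jun, Junb, Jund and Batf in each library minus the mean of that gene over the 9 libraries, as scaled by TMM (left) and after removal of GC and length trends with centring (right). Control 1 is at 1.13 for Jun on the left and 1.35 on the right, and the HS3A8-high libraries are below 0 for Fos, Jun, Junb and Jund in both panels.

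Genes of the surrounding pathway were taken as lists, and counts are for HS3A8-high against HS3A8-low MEPs. Of 22 other immediate-early genes, 19 were tested, 17 were lower in HS3A8-high and 11 of these passed. The median log2 fold change was -1.71 (-0.03 over all genes), and 16 passed with the replicate block. Egr1, a zinc-finger factor induced alongside Fos, gave 23.5, 10.2 and 13.9 CPM in HS3A8-high and 205, 110 and 78.7 CPM in HS3A8-low MEPs and was 8.47-fold lower (edgeR adjusted p = 0.0253). Lower too were Btg2 (5.69-fold), an antiproliferative gene, Zfp36 (5.08-fold), whose protein destabilizes AU-rich mRNAs, Klf6 (5.04-fold), Dusp2 (4.89-fold) and Dusp5 (4.6-fold), phosphatases of MAP kinases, and Ier3 (3.47-fold). Dusp1 was 3.03-fold, Ier2 2.23-fold, Dusp6 2.02-fold and Nfkbia, the inhibitor of NF-κB, 1.59-fold lower. Myc, also induced early by growth factors and the most abundant of the list, did not pass (log2 fold change 0.08, SE 0.102). Summed over the list, HS3A8-high libraries held 1190 to 1479 CPM, HS3A8-low libraries 2222 to 2260 CPM, control 1 2173 CPM and controls 2 and 3 1663 and 1677 CPM.

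Genes upstream of AP-1 and its relatives had few members that passed. Of the MAP kinase cascade, 20 of 22 genes were tested and 0 passed in edgeR (6 at an unadjusted p under 0.05, median log2 fold change -0.02), with Mapk14, which encodes p38α, at 0.05 (SE 0.105). With the replicate block Map3k3, Map3k8 and Rps6ka1 passed, all lower in HS3A8-high, and DESeq2 called Map3k3 and Map3k8 lower and Map2k2 higher, as did voom but for Map3k8. Map3k8 was at 0.239 CPM on average for HS3A8-high and 2.66 CPM for HS3A8-low. Of 9 transcription factors known to act at the Fos promoter, Elk3, a ternary complex factor, was 4.54-fold lower (edgeR adjusted p = 0.0319). Srf (log2 fold change 0.24, SE 0.136) of the same list did not pass, and Mrtfa, on average at 10.2 CPM for HS3A8-high and 26.3 CPM for HS3A8-low, passed with the replicate block, DESeq2 and voom but not in the edgeR test without the block. Of 18 other AP-1-related bZIP genes, 13 were tested, and Nfe2, the large subunit of a factor of megakaryocyte and erythroid cells, was 1.62-fold lower (edgeR adjusted p = 0.0257), with a list median of 0.02. Of 13 genes for feedback phosphatases, Sprouty proteins and Jun ligases, 12 were tested and 0 passed in edgeR (1 at an unadjusted p under 0.05) or DESeq2, and voom called Dusp10 lower, with the ubiquitin ligase genes Cop1 at 0.14 (SE 0.165) and Itch at -0.29 (SE 0.152).

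Of 16 genes described as AP-1 targets, 9 were tested and 0 passed in edgeR (3 at an unadjusted p under 0.05, median log2 fold change -0.7), with Lmna at 0.19 (SE 0.0829) and Tgfb1 at -0.28 (SE 0.129) as the most abundant. DESeq2 called Bcl2l1 and Cdkn1a lower in HS3A8-high, voom these and Vim, and with the replicate block Plaur, Hmox1, Vim and Cdkn1a passed, all lower. Plau and Timp1 had 0 counts in all libraries. Of 7 heat-shock genes 6 were tested and 1 passed, Hsp90aa1, which was higher in HS3A8-high (log2 fold change 0.36, SE 0.0702, edgeR adjusted p = 0.0424). With the replicate block Hspa8 and Hsph1 were also higher. In edgeR 0 genes of these lists passed in either comparison with the control, with 11 of 18 other immediate-early genes at an unadjusted p under 0.05 for HS3A8-high and 4 of 19 for HS3A8-low. The other lists had 0 or 1 such gene for HS3A8-high and 0 to 3 for HS3A8-low. For HS3A8-high against the control DESeq2 called 6 other immediate-early genes, all lower (Egr1, Ier3, Dusp2, Dusp6, Zfp36 and Btg2), and voom the first 3 of them. For HS3A8-low against the control DESeq2 called Vim higher, and voom called 9 other immediate-early genes, 2 AP-1 targets (Mmp9 and Vim) and Elk3 higher.

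**Figure D5:**
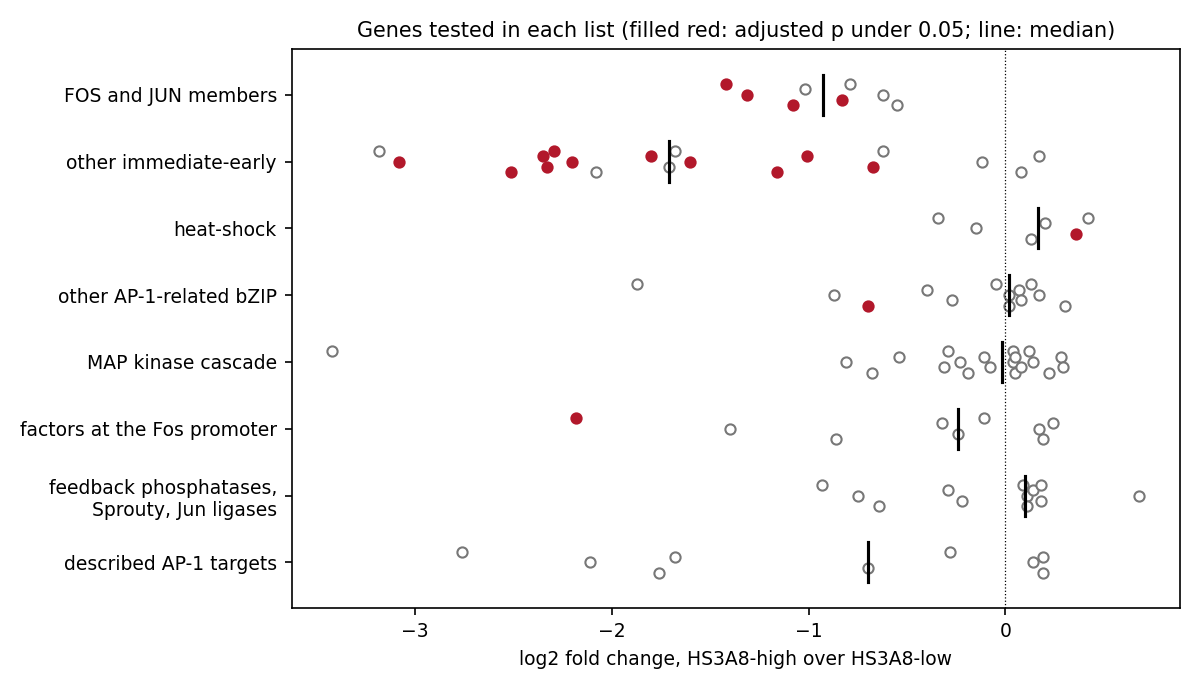
Log2 fold change, HS3A8-high over HS3A8-low, of every gene tested in each list, filled red for an adjusted p under 0.05, with a line at the median. The FOS and JUN members (4 of 8 filled) and the other immediate-early genes (11 of 19 filled) lie mostly below 0, and the MAP kinase cascade is centred at -0.02.

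Markers of several other cell types also differed between the fractions. Of 8 megakaryocyte markers tested 4 passed, all lower in HS3A8-high (Itga2b, Pf4 and Fli1 among them). So did 3 of 9 T and NK cell markers (Trbc1, Tcf7 and Nkg7) and 2 of 7 stem and multipotent cell markers (Meis1 and Hlf). Pecam1 passed too, lower in HS3A8-high, but no other gene of the 6 on the endothelial and stromal list had enough counts to be tested. Summed T and NK cell markers (11 genes) were 4.27 to 32.4 CPM for HS3A8-high, 190 to 233 for HS3A8-low and 53.6 to 116 for control libraries, and stem and multipotent cell markers (9 genes) were 16.9 to 32.2, 150 to 182 and 70.2 to 127 CPM. Of 7 MEP markers 1 passed, lower in HS3A8-high, and DESeq2 and the replicate block each called 2 lower, Gata2 being the second. Of 11 erythroid markers 5 had higher and 6 lower levels in HS3A8-high, and Car1 alone passed, higher. Among granulocyte-monocyte (14 tested), basophil and mast cell (4), macrophage (4) and B cell markers (2) 0 passed in edgeR (0, 4, 0 and 1 at an unadjusted p under 0.05), DESeq2 and voom each called 3 basophil and mast cell markers and 1 B cell marker lower, and 10 granulocyte-monocyte markers passed with the replicate block, all lower in HS3A8-high. That fit also called 7 megakaryocyte, 5 T and NK cell and 5 stem and multipotent cell markers lower and 4 erythroid markers higher. The most abundant of these lists had log2 fold changes of -1.34 for Mpo and -1.86 for Lyz2, -1.13 for Gata2 (Prss34 was not tested), -0.61 for Cd163 and -1.4 for Cd68, and -2.41 for Cd79b and -1 for Vpreb1. Pax5 and Ms4a1 of B cells, Tpsb2 of mast cells and Cdh5 of endothelium had 0 counts throughout, and Gp6, Procr, Ly6g and Cd4 had 0 in HS3A8-high. The part of these cell types in the levels of FOS and JUN genes was not tested. HS3A8-high 3, with 1905 CPM of summed granulocyte-monocyte markers, was the highest HS3A8-high library for Fos (344 CPM), Jun (146), Junb (123) and Jund (61.8). HS3A8-low 3, with 4865 CPM of these markers, was the highest HS3A8-low library for Fos (647 CPM) and Junb (262). For Jun (367 CPM) and Jund (107) that was HS3A8-low 1.

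Likeness across the libraries differed between members. Pearson's r of log2 CPM over the 9 libraries, which share 3 groups and control 1, was 0.988 between Jun and Junb, 0.966 between Jun and Jund, 0.946 between Fos and Jun, 0.587 between Fosb and Batf and 0.553 between Fos and Fosb. Among 9343 other genes averaging 5 CPM or more, those most like Fos were Btg2 (r = 0.989), Dusp1 (0.987) and Tuba1a (0.987). Ier2 was first for both Jun (0.992) and Junb (0.99), followed by Psmb8 (0.984 and 0.99), and the third were Dnajb9 for Jun (0.981) and Zfand5 for Junb (0.984). Jund was most like Ccdc71l (0.963), Ppp1r15a (0.958) and Zfp873 (0.953). For Fosb they were Sec22a (0.949), Mapk8ip3 (0.943) and 1110032A03Rik (0.941), and for Batf Commd7 (0.965), Rnf113a2 (0.961) and Trmt61b (0.951). Genes of the immediate-early list were among the 3 nearest for Fos, Jun and Junb, and not for Jund, Fosb or Batf. All 18 were the same with a prior count of 1 in place of 2.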

How the data were processed

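RNA-seq of 9 libraries (3 per group, 25000 FACS-purified MEPs each) was analysed. The authors sequenced low-input libraries on the Illumina Hi-Seq platform, and the submitters' processing notes name STAR 2.5, HTSeq 0.6.1 and mm10. The deposited values are whole-number read counts per gene, not normalized. The annotation release and strand setting were not given in the sources used here. Of 35275 identifiers, 34490 matched GENCODE M21 on GRCm38, and promoter windows were from RefSeq GRCm38.p6, which was matched by symbol for 8 of 9 members (all but Fosl1).

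Counts were analysed in R 4.3.3 with edgeR 4.0.16 (TMM, filterByExpr, quasi-likelihood test, two-sided, only the 2 groups compared in a fit, Benjamini-Hochberg, adjusted p under 0.05), and the scripts were tested on simulated data. Standard errors were derived from the fold change and its F statistic. Correlations used log2 CPM with a prior count of 2. Alternatives were DESeq2 1.42.0 (size factors or its test, the study's tool), voom with quality weights of limma 3.58.1, 1 fit of all 9 libraries, a minimum mean count of 10 or no filter, a replicate block, each library left out and pair 3 left out. Chosen after seeing the data were removal of GC and length trends (splines of 5 degrees of freedom, centred or not, with or without the block) and omission of control 1 with the fraction's replicate 3.

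All members were named, and from each list the genes that passed, otherwise the 2 most abundant, except that some list genes are not reported singly here and remain in the counts. For each member averaging 5 CPM or more, the 3 genes with the highest Pearson r were named. The members and lists were chosen with earlier results of these data known. Each library was expressed as its deviation from its group over 12108 genes. Same-numbered libraries of both fractions deviated together (r = 0.492, 0.325 and 0.509) and differently numbered ones less so (-0.469 to 0.122), so that these numbers were taken to pair the samples. The pairing comes from the data, since the labels give only the numbers. The study speaks of individual mice for these samples without saying whether both fractions came from one mouse.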

Additional observations from a re-analysis of the deposited data

How the results depend on the processing

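Depth limits Fosl1, Fosl2 and Atf3, which had at most 44 counts in any library, and 3 libraries per group limit every call.

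For HS3A8-high against HS3A8-low, the members that passed fell from 4 to 1 with all 9 libraries in 1 fit and ranged from 0 to 4 when single replicates were left out, where all genes passing ranged from 0 to 439. The number of all genes that passed (451) was 1305 with the DESeq2 test, 1490 with voom, 748 without pair 3, 943 and 3635 with GC and length trends removed centred and not centred, 1367 with the replicate block, and 1955 and 5263 with both. The replicate block changed no call of a member in any comparison, and it gave 0 genes in both comparisons with the control, whose replicate numbers did not pair with the fractions (r = -0.223 to -0.078 for HS3A8-high and -0.346 to 0.032 for HS3A8-low). Shares of calls lower in HS3A8-high were 68.4% with DESeq2, 71.3% with voom and with the replicate block, 95.6% without pair 3 and 97.5% with all 9 libraries.

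For HS3A8-high against the control, all genes passing were 2 in the main test, 138 with DESeq2, 100 with voom, 9 with no filter, 32 with all 9 libraries, 7 with either trend removal, 0 without pair 3 and 0 to 5 with single replicates left out. Without control 1 and HS3A8-high 3 they were 175, with 2 members. For HS3A8-low against the control, 94 genes passed with DESeq2, 287 with voom (2 members) and 26 without control 1 and HS3A8-low 3 (1 member, Junb). The median of the members (0.13) turned to -0.01 with uncentred trends removed and -0.13 without pair 3, and ranged from -0.14 to 0.63 with single replicates left out. Single members that turned were Batf at 0.11 with centred trends removed, with and without the block, 0.12 with voom and 0.1 without control 1 and HS3A8-low 3, Fosb at 0.13 with voom and 0.27 without control 1 and HS3A8-low 3, and Fosl2 at -0.14 without pair 3 and -0.12 with voom. Jun turned to -0.05 and -0.15 with centred and uncentred trends removed and -0.1 without pair 3, and Junb to -0.11 without pair 3. Jund turned to -0.01 with DESeq2 size factors, -0.02 with its test, -0.12 and -0.23 with the trends removed, -0.16 without pair 3 and -0.08 with the block and uncentred trends removed. With single replicates left out the log2 fold changes in that comparison ranged from -1.5 to 0.51 for Atf3, -0.31 to 0.26 for Batf, -0.86 to 0.09 for Fosb, -0.26 to 0.86 for Fosl2, -0.14 to 0.74 for Jun, -0.06 to 0.86 for Junb and -0.26 to 0.56 for Jund. The cause was not tested.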
